A study of Mus musculus with 65 samples.

Results

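A set of 9 genes known from cerebellar granule cells was followed through cerebellum, medulla and pons of a mouse model of spinocerebellar ataxia type 1, an inherited disease caused by an expanded CAG repeat in the Atxn1 gene. The genes were listed by name and make up 9 of the 49670 gene IDs in the count table. They were Gabra6, Grm4, Grin2c, Neurod1, Neurod2, Zic1, Zic2, Pax6 and Barhl1. Each was matched by its Ensembl ID to 1 symbol in the GENCODE vM21 annotation of GRCm38, and all 9 passed the filter on low counts in all 5 sets of libraries. The study sequenced RNA of C57BL/6J mice that were wild type and given vehicle, knockin for the Atxn1[82Q] allele and given vehicle, or Atxn1[82Q] knockin and given an antisense oligonucleotide (ASO) against Atxn1. Every group held 4 libraries of cerebellum at 18 weeks of age, 3 each of medulla and pons at 18 weeks, and 4 of pons at 28 weeks. The medulla at 28 weeks held 8 libraries for wild type, 8 for knockin with vehicle and 7 for knockin with ASO. These carried 2 batch labels, and the labels do not say what the batches were. The labels give neither the dose nor the dosing time of the ASO, nor whether the knockin mice carried 1 or both altered alleles. They do not say that the libraries came from separate mice, so the p-values measure the spread between these libraries.

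Granule cells are the small excitatory neurons of the cerebellar cortex. They receive mossy fibres and send parallel fibres to Purkinje cells, with which they signal through glutamate. Their mature state is marked by a GABA-A receptor that holds the alpha 6 subunit and by an NMDA receptor that holds the 2C subunit, while the transcription factors of the Zic, NeuroD, Pax and Barhl families act as their precursors leave the rhombic lip and differentiate. Several of the same factors also serve other hindbrain neurons that arise from the rhombic lip, such as those of the precerebellar nuclei in pons and medulla.

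The 65 libraries had total counts from 49.2 M to 119.1 M, with a median of 77.0 M (M, mega). Levels are given in counts-per-million (CPM) units scaled over all libraries by the trimmed mean of M values (TMM), and differences as log2 values with their standard error from edgeR's quasi-likelihood test. A gene was called at a Benjamini-Hochberg adjusted p under 0.05 over all genes tested. Atxn1 itself, the target of the ASO, served to check the labels. In the cerebellum it lay between 45.5 and 55.6 CPM in wild type, between 57.4 and 64.5 in vehicle-treated knockin, and at 31.4, 39.6, 20.3 and 49.8 in ASO-treated knockin libraries, so the library labelled ASO replicate 4 stood within the wild type range. At 18 weeks the library labelled wild type replicate 3 was low for Atxn1 in medulla (15.3 CPM) and pons (16.4), and the library labelled ASO replicate 2 was not reduced in either (38.7 and 50.9). At 28 weeks the library labelled ASO replicate 2 stood at 49.4 CPM in medulla and 50.9 in pons. Of the 23 medulla libraries at 28 weeks, 4 had a summed level of Hox genes, which mark the position of the medulla, of only 31.0 to 40.7 CPM. The other medulla libraries began at 116 CPM, and the highest pons library reached 62.4. These 4 were wild type replicate 5, vehicle-treated knockin replicate 8 and ASO-treated replicates 6 and 7.

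Upstream windows of 7 of the 9 genes were found in the RefSeq table for GRCm38.p6, and Grm4 and Zic2 were not among them. The 2 windows printed here are those of Gabra6, the gene against which the brainstem libraries are read below, and of Neurod2, a factor that fell in the knockin cerebellum. Each holds the 250 bases before the transcription start, read 5′ to 3′ on the minus strand, at chr11:42321073-42321322 for Gabra6 and chr11:98329646-98329895 for Neurod2. Capitals mark the E-box, CANNTG, the core motif bound by basic helix-loop-helix factors such as the NeuroD proteins.
Gabra6: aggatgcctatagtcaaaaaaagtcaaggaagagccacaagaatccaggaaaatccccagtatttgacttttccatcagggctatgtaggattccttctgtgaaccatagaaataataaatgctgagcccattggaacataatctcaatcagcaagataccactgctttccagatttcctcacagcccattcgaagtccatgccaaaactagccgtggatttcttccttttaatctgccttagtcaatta
Neurod2: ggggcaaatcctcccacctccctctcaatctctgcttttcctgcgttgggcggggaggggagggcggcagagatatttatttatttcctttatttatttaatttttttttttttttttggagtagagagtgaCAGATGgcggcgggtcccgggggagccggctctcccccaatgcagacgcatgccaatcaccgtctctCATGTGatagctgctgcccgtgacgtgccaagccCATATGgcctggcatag
The Gabra6 window held no E-box. The Neurod2 window held 3, which began 118, 51 and 17 bases before the start, and the first of them read CAGATG, the form preferred by NeuroD factors. The E-box pattern CANNTG is its own reverse complement, so 1 search covers both strands. Of 32851 windows of this length in the table, 66.2% held at least 1 E-box, the median window held 1, and 14.4% held CAGATG on either strand. These matches describe the letters only.

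In wild type cerebellum the 9 genes spanned a wide range. Per kilobase of exon, Gabra6 was the highest at 274 ± 28.4 CPM per kb (SD, n = 4). Zic1 followed at 132 ± 3.73, Neurod1 at 89.9 ± 6.05, Grin2c at 74.3 ± 1.61, Zic2 at 68.0 ± 2.21 and Grm4 at 57.6 ± 1.03 CPM per kb. Neurod2, at 30.1 ± 1.17, Pax6, at 7.57 ± 0.504, and Barhl1, at 3.0 ± 0.274 CPM per kb, closed the order. No 2 neighbours in this order lay within 1 SD of each other. In wild type medulla at 28 weeks the order differed (n = 8). Zic1 at 9.99 ± 1.75, Grin2c at 7.78 ± 0.813, Grm4 at 6.48 ± 0.362 and Zic2 at 4.64 ± 1.33 CPM per kb led. Neurod2 at 2.87 ± 0.518 and Gabra6 at 2.63 ± 1.97 followed. Neurod1 at 1.99 ± 0.833, Barhl1 at 1.05 ± 0.633 and Pax6 at 0.882 ± 0.109 CPM per kb came last. The spread of Gabra6 overlapped those of Zic2, Neurod2, Neurod1, Barhl1 and Pax6.

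All 9 genes were higher in wild type cerebellum than in wild type medulla at 18 weeks, where 26.4% of the 21630 genes tested were called higher, 27.5% lower and so 54.0% in either direction. Gabra6, the alpha 6 subunit of the GABA-A receptor, had levels of 737, 652, 745 and 598 CPM in cerebellum against 3.92, 0.521 and 3.22 CPM in medulla. Its log2 difference was 8.06 ± 1.17, or 268-fold (adjusted p = 4.8e-06, edgeR). Neurod1, a differentiation factor of granule neurons, was 77.9-fold higher. The other differences ran from 19.8-fold for Zic2 down to 9.47-fold for Pax6 and 4.04-fold for Barhl1. Against wild type pons at 18 weeks, 8 of the 9 were higher, where 24.2% of genes were called higher, 26.4% lower and 50.6% in either direction. Gabra6 was 16.9-fold and Neurod1 16.6-fold higher than in pons, log2 differences of 4.08 and 4.05. The size of both depended on wild type pons replicate 1, without which they were 5.82 and 5.40. Barhl1, a homeobox factor of the rhombic lip lineage, was the exception, with a log2 difference of 0.33 ± 0.35 (95% interval -0.38 to 1.05, adjusted p = 0.45, edgeR). The libraries do not show whether a low level means fewer cells of a type or less RNA per cell, which cannot be told apart in bulk tissue.

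**Figure D1:**
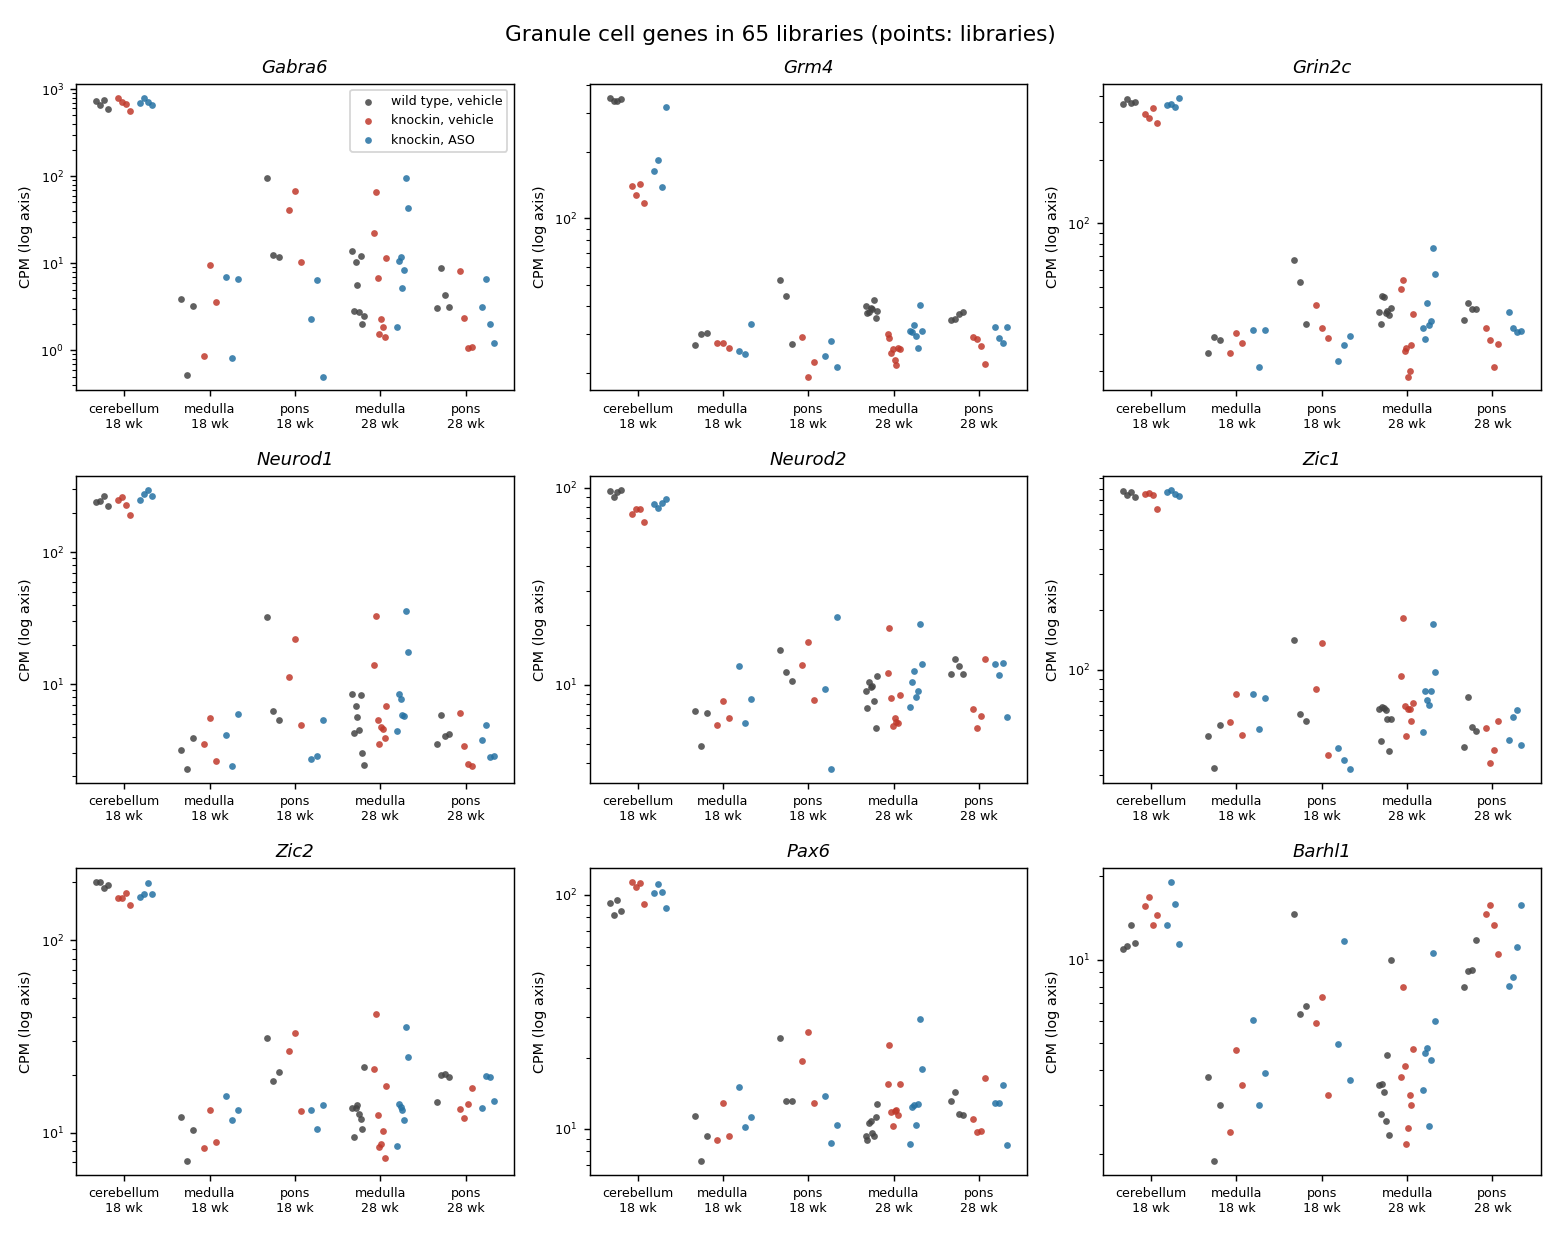
Levels of the 9 genes in each of the 65 libraries (CPM on a log axis, 1 panel per gene), by tissue and age, with each point a library and colours giving the 3 groups. The cerebellum stands above both brainstem tissues in every panel but that of Barhl1, where pons libraries reach cerebellar levels.

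In the knockin cerebellum, Grm4 fell most, Neurod2 fell less, and Gabra6 showed almost no difference. Grm4, the metabotropic glutamate receptor 4 on parallel fibre terminals (chromosome 17, 27422387 to 27521403, minus strand), read 352, 341, 338 and 346 CPM in wild type and 141, 128, 143 and 118 CPM in vehicle-treated knockin libraries. All 4 knockin values lay below all 4 wild type values, with a wide gap. The log2 difference was -1.39 ± 0.21, or 2.62-fold lower (adjusted p = 0.0044, edgeR). Neurod2, a NeuroD factor kept by mature neurons (chromosome 11, 98325415 to 98329648, minus strand), read 96.6, 89.4, 95.0 and 97.7 CPM in wild type and 73.8, 77.9, 77.7 and 67.2 in knockin libraries, again without overlap. It was lower by a log2 difference of -0.36 ± 0.06, or 1.28-fold (adjusted p = 0.011, edgeR). These 2 of the 9 genes were called, both lower, where 2.06% of the 20350 genes tested were called lower, 0.654% higher and 2.71% in either direction. DESeq2 called 4 of the 9, with Grin2c and Zic2 beside these 2, and 5.97% of its tested genes. The median log2 difference of the 9 was -0.08, against 0.01 over all genes.

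The other receptor genes differed less. Gabra6 (chromosome 11, 42306437 to 42321072, minus strand) had a mean of 685 ± 101 CPM in knockin and 683 ± 70.6 CPM in wild type (SD, n = 4 each), and the 95% interval of its log2 difference ran from -0.24 to 0.24. Grin2c, the 2C subunit of the NMDA receptor (chromosome 11, 115249169 to 115267243, minus strand), read 297 to 351 CPM in knockin and 366 to 385 CPM in wild type libraries. These ranges did not overlap, and the log2 difference of -0.22 ± 0.07 missed the threshold (adjusted p = 0.13, edgeR). It passed in DESeq2 (adjusted p = 0.046) and when the ASO libraries were left out of the edgeR fit (0.015).

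Among the transcription factors, Zic2, a zinc finger factor of granule precursors (chromosome 14, 122475435 to 122479852, plus strand), read 153 to 176 CPM in knockin and 187 to 201 in wild type libraries, with no overlap. Its log2 difference of -0.25 ± 0.07 had an adjusted p of 0.079 in edgeR, 0.0084 in DESeq2 and 0.0032 in the edgeR fit of the 2 groups alone. Zic1, its close relative (chromosome 9, 91358058 to 91365810, minus strand), overlapped between the groups, at 721 ± 59.7 against 753 ± 21.2 CPM, and the 95% interval of its log2 difference was -0.22 to 0.09. Neurod1 (chromosome 2, 79452521 to 79456751, minus strand) overlapped as well, with an interval of -0.28 to 0.13. Pax6, a paired homeobox factor that granule cells keep through life (chromosome 2, 105668900 to 105697364, plus strand), and Barhl1 (chromosome 2, 28907679 to 28916668, minus strand) differed in the other direction. Pax6 stood at 106 ± 10.1 CPM in knockin and 88.5 ± 5.89 in wild type, a log2 difference of 0.26 ± 0.09 (adjusted p = 0.18, edgeR). Barhl1 stood at 15.1 ± 1.51 and 11.7 ± 1.07 CPM, a log2 difference of 0.36 ± 0.14 (adjusted p = 0.24, edgeR). Its values did not overlap either, by a narrow margin, as knockin libraries began at 13.28 and wild type libraries reached 13.2795 CPM. Pax6 and Barhl1 passed only in the edgeR fit of the 2 groups alone, at adjusted p = 0.036 and 0.012. The share of all genes without overlap between groups is not given here for any comparison. Vehicle-treated knockin replicate 4 was the lowest of its group for 8 of the 9 genes.

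Beside these genes, 1 of 16 further granule cell genes was called in the knockin cerebellum, where 2.71% of all genes were called and 2.06% called lower. The called gene was Cbln1, a synaptic organiser released by granule cells, which was 1.43-fold lower (adjusted p = 0.037, edgeR). The median log2 difference of the 16 was -0.02. Of 26 tested paralogues and partner subunits, only Gabra2, another GABA-A alpha subunit, was called, 1.26-fold lower (adjusted p = 0.013). Of 12 genes of Purkinje cells, the targets of granule cells, 7 were called lower, with the regulator Rgs8 2.21-fold and the calcium binding protein Calb1 1.61-fold lower. The summed level of the 12 ran from 5572 to 6975 CPM in knockin and from 10186 to 11199 CPM in wild type libraries. Of 6 genes of Bergmann glia 3 were called lower, and their summed level ran from 2936 to 3207 CPM in knockin and from 4401 to 4988 CPM in wild type libraries. The summed level of the 9 granule cell genes ran from 2119 to 2633 and from 2665 to 2877 CPM. The part of the Purkinje cell and Bergmann glia values in the values of the granule cell genes was not tested.

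No granule cell gene was called between ASO-treated and vehicle-treated knockin cerebella, where 0.0491% of all genes were called. An unadjusted p under 0.05 in edgeR was found for 4 of the 9. The share of all genes at that unadjusted cutoff is not given here, in this or later comparisons, so such counts cannot show an excess. DESeq2 called none of the 9 and 0.997% of its tested genes. Grm4 read 163, 184, 138 and 319.6 CPM in ASO-treated replicates 1 to 4. Replicates 1 to 3 lay near the knockin range and the library labelled ASO replicate 4, whose Atxn1 was at the wild type level, lay near the wild type range. The log2 difference to vehicle was 0.59 ± 0.20 (adjusted p = 0.47, edgeR), and it was 0.27 without that library (adjusted p = 0.55). Against wild type, Grm4 in ASO-treated knockin had a log2 difference of -0.79 ± 0.20 (adjusted p = 0.20, edgeR). Without ASO replicate 4 it was -1.12 (adjusted p = 0.00071), and DESeq2 gave -0.81 with all libraries (adjusted p = 0.015). Grin2c at 355 to 393 CPM and Neurod2 at 79.2 to 88.2 CPM lay wholly above the vehicle-treated knockin libraries, with log2 differences of 0.18 ± 0.07 and 0.16 ± 0.06 (adjusted p = 0.55 and 0.59, edgeR). Both comparisons share the vehicle-treated knockin libraries. In the comparison of ASO-treated knockin with wild type, edgeR called 0.0% of all genes and 0 of the 9, with 4 of the 9 at an unadjusted p under 0.05, and DESeq2 called Grm4 alone of the 9 and 1.92% of its tested genes.

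**Figure D2:**
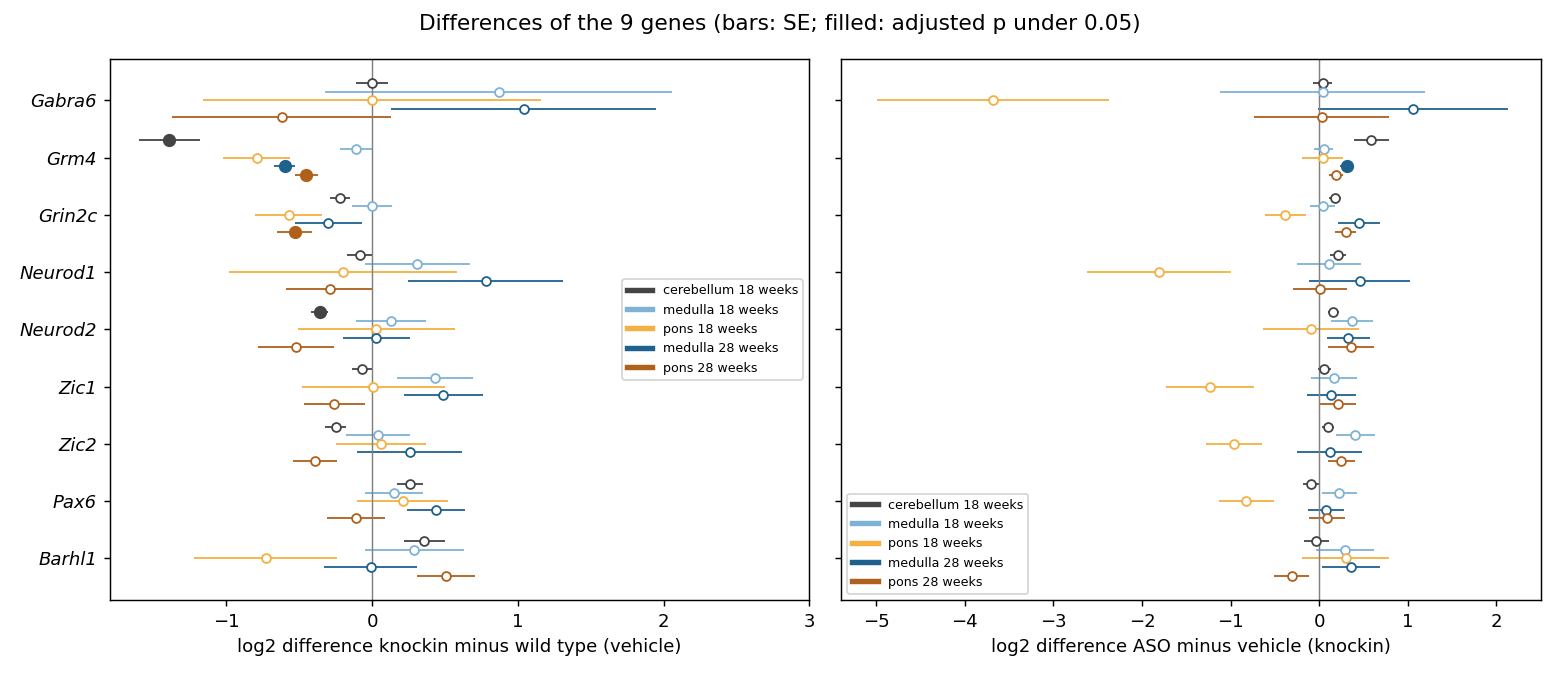
Log2 differences of the 9 genes for vehicle-treated knockin minus wild type (left) and ASO minus vehicle in knockin (right), with 1 colour per tissue and age, bars for the standard error and filled points for an adjusted p under 0.05 in edgeR. Grm4 lies below 0 in all 5 knockin comparisons, and bars for Gabra6 in medulla and pons are many times wider than in cerebellum.

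At 18 weeks no gene of the 9 was called in medulla or pons, in either comparison, where edgeR called 0.0% of all genes in each. In the medulla the vehicle-treated knockin values of all 9 overlapped those of wild type, and none reached an unadjusted p under 0.05 in either comparison. Grm4 there read 26.9, 29.96 and 30.2 CPM in wild type and 27.3, 27.4 and 25.9 CPM in knockin libraries, and the 95% interval of its log2 difference was -0.34 to 0.12. In the pons Grm4 read 52.5, 44.4 and 27.1 CPM in wild type and 29.0, 19.3 and 22.3 CPM in knockin libraries. The lowest wild type value belonged to replicate 3, the library low in Atxn1. The log2 difference was -0.79 ± 0.23 (adjusted p = 0.41, edgeR), and -1.02 without the 2 libraries whose Atxn1 went against their labels (adjusted p = 0.60). Unadjusted p-values under 0.05 were found for 2 of the 9 genes, Grm4 and Grin2c, in the knockin comparison, and for 4 in the ASO comparison of the pons. DESeq2 called none of the 9 in these 4 comparisons.

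The 28-week medulla gave 1 called gene of the 9 in the knockin comparison, where 9.99% of the 20465 genes tested were called lower, 9.28% higher and 19.3% in either direction. DESeq2 also called 1 of the 9, and 21.2% of its tested genes. Grm4 ran from 35.6 through a median of 38.5 to 42.8 CPM in the 8 wild type libraries and from 21.8 through 25.7 to 29.9 CPM in the 8 vehicle-treated knockin libraries. The 2 ranges did not overlap. The log2 difference was -0.60 ± 0.07, or 1.52-fold lower (adjusted p = 4.1e-06, edgeR with a batch term). It was -0.51 in the first labelled batch (adjusted p = 0.0026) and -0.69 in the second (adjusted p = 0.0039), and -0.61 without the 4 libraries of low Hox level.

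The remaining 8 genes of the 28-week medulla overlapped between the groups. Grin2c ran from 33.2 through 38.1 to 45.4 CPM in wild type and from 18.8 through 26.1 to 53.7 CPM in knockin libraries, a log2 difference of -0.30 ± 0.23 (adjusted p = 0.41, edgeR). The level of Cbln3, a granule cell gene outside the 9, was added to the model as a term after the data were seen, since it rose and fell with Gabra6 over these libraries. With it the difference of Grin2c was -0.47 (adjusted p = 0.0065). Pax6 ran from 8.92 through 10.1 to 12.8 CPM in wild type and from 10.3 through 11.96 to 22.7 CPM in knockin libraries. Its log2 difference of 0.44 ± 0.20 (adjusted p = 0.13, edgeR) was 0.30 with the Cbln3 term (adjusted p = 0.034) and 0.44 without the libraries of low Hox level (adjusted p = 0.041). Gabra6 and Neurod1 had log2 differences of 1.04 ± 0.91 and 0.78 ± 0.53, and their intervals, -0.87 to 2.95 and -0.34 to 1.89, spanned 0. Without vehicle-treated knockin replicate 2 the differences were 0.06 and 0.17. Over all genes tested, 19.3% were called in the knockin comparison of the 28-week medulla, 9.28% higher and 9.99% lower. Of the 16 further granule cell genes, Etv1 (1.16-fold) and Meis1 (1.10-fold) were called higher and Calb2 (1.94-fold) lower. Of 27 paralogues and subunits tested, 1 was called higher and 2 lower. The receptors Grm2 and Grm3 were 1.5-fold and 1.33-fold lower.

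After the ASO, Grm4 in the 28-week medulla ran from 25.9 through 30.8 to 40.7 CPM in 7 libraries, which overlapped the vehicle-treated knockin range. It was called higher than vehicle with a log2 difference of 0.31 ± 0.07, or 1.24-fold (adjusted p = 0.03, edgeR), where 1.3% of all genes were called higher, 0.386% lower and 1.69% in either direction. None of the other 8 genes was called. The call on Grm4 lay near the threshold. With 1 library left out it was made in 14 of 23 fits, with log2 differences from 0.23 to 0.35. Without ASO replicate 6, whose Gabra6 was the highest of the set, the difference was 0.23 (adjusted p = 0.075), and without the 4 libraries of low Hox level it was 0.21 (adjusted p = 0.19). It was also lost without ASO replicate 3 and without each of vehicle replicates 3 to 7, at adjusted p between 0.051 and 0.073, and it stood at the threshold without ASO replicate 1 or 7 (adjusted p = 0.05). Within the labelled batches it was 0.20 (adjusted p = 0.41) and 0.44 (adjusted p = 0.15), and with replicate numbers as a block 0.30 (adjusted p = 0.078). In the fit of the 2 groups alone it was 0.31 (adjusted p = 0.12). Among the paralogues, Grm3 was called higher as well, 1.22-fold.

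In the 28-week pons 2 of the 9 genes were called in the knockin comparison, both lower, where 5.65% of the 20458 genes tested were called lower, 4.14% higher and 9.79% in either direction. DESeq2 called 4 of the 9, with Zic2 and Barhl1 beside these 2, and 16.5% of its tested genes. Grm4 read 34.7, 34.9, 36.9 and 37.8 CPM in wild type and 29.2, 28.5, 26.4 and 21.9 CPM in knockin libraries, a log2 difference of -0.45 ± 0.08, or 1.37-fold lower (adjusted p = 0.0056, edgeR). Grin2c read 34.6, 42.1, 39.3 and 39.1 CPM in wild type and 31.9, 27.9, 20.8 and 26.7 CPM in knockin libraries, a log2 difference of -0.53 ± 0.12, or 1.45-fold lower (adjusted p = 0.017, edgeR). Neither gene overlapped between the groups. Neurod2 and Zic2 had log2 differences of -0.52 ± 0.26 and -0.39 ± 0.15 (adjusted p = 0.24 and 0.13, edgeR). Both depended on vehicle-treated knockin replicate 4, without which they were -0.85 (adjusted p = 0.011) and -0.51 (adjusted p = 0.042). Barhl1 went the other way, with 7.99 to 11.8 CPM in wild type and 10.4 to 15.7 CPM in knockin libraries. Its log2 difference was 0.51 ± 0.20 (adjusted p = 0.14 in edgeR and 0.042 in DESeq2). Of the 16 further granule cell genes, Cbln1 (1.96-fold) and Calb2 (1.38-fold) were called lower. Of 27 paralogues and subunits tested, 1 was called higher and 3 lower. Barhl2 was 2.54-fold higher, from 0.975 to 2.48 CPM, and the receptors Grm3 and Grm8 were 1.27-fold and 1.22-fold lower. After the ASO no gene of the 9 was called in the pons, where 0.0929% of all genes were called, 0.0831% higher and 0.00978% lower. Grm4 and Grin2c had unadjusted p-values under 0.05 with log2 differences of 0.19 ± 0.08 and 0.30 ± 0.12 (adjusted p = 0.31 and 0.28, edgeR), and DESeq2 called none of the 9 and 3.21% of its tested genes.

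Grm4 was therefore lower in knockin than in wild type means in all 5 sets of libraries, and called so in cerebellum at 18 weeks and in medulla and pons at 28 weeks. The difference of its knockin effect between tissues was tested at 18 weeks. Between cerebellum and medulla it was -1.27 ± 0.29 on the log2 scale, which missed the threshold in edgeR (adjusted p = 0.088) and passed it in DESeq2 (adjusted p = 0.0073). Between cerebellum and pons it was -0.60 ± 0.29 (adjusted p = 0.39, edgeR). None of the 9 was called in either test by edgeR, where 0.162% of all genes were called against the medulla (0.00925% higher, 0.153% lower) and 0.245% against the pons (0.0925% higher, 0.153% lower). Of the 9, 1 gene had an unadjusted p under 0.05 in each, Grm4 against the medulla and Barhl1 against the pons, and DESeq2 called 1 and 0. Age effects were not tested, since the 2 ages were not modelled together.

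**Figure D3:**
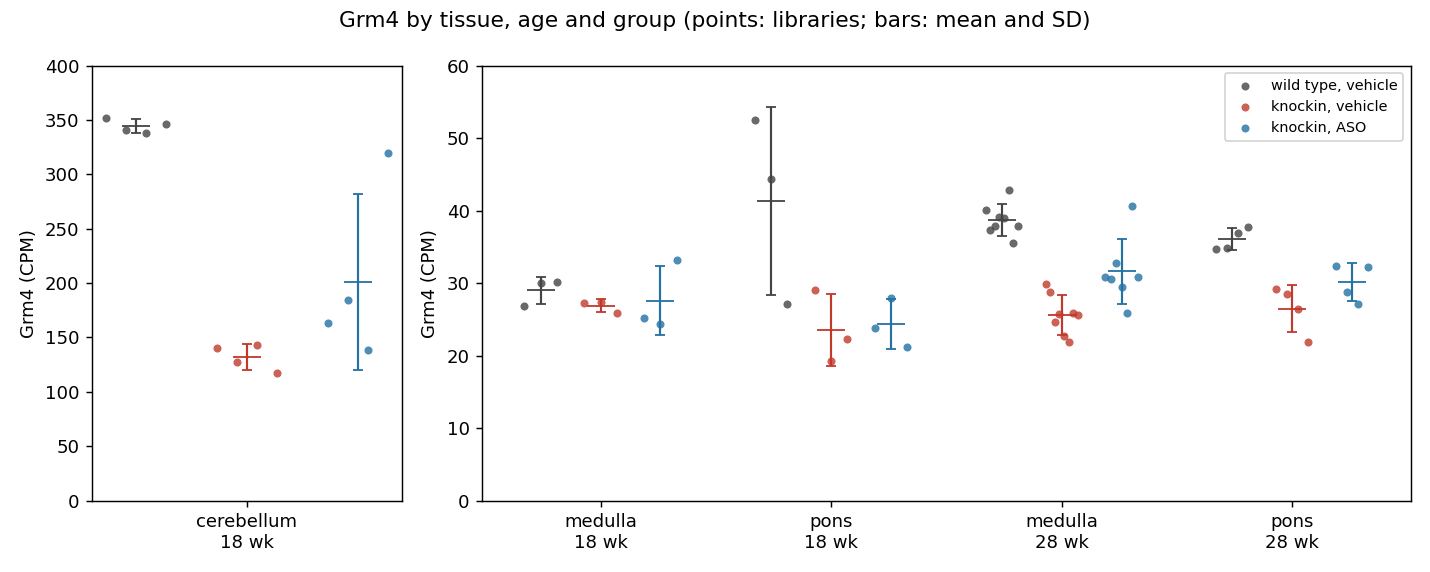
Levels of Grm4 in each library (points) with the mean and SD of each group, on linear axes, with cerebellum on its own scale at left. Wild type and vehicle-treated knockin libraries separate in cerebellum and in 28-week medulla and pons, and 1 ASO-treated cerebellum, at 319.6 CPM, stands apart from the other 3.

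Over the 12 cerebellar libraries, the genes whose log2 CPM followed Grm4 most closely were Mybpc3, Nab2, Ccdc63, Trim9 and Clstn2, with Pearson r from 0.977 to 0.987 among 12639 genes compared. These libraries form 3 groups and share their group differences, so the likeness describes that pattern alone.

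In medulla and pons the level of these genes may come in part from cerebellar tissue carried in the dissection, which was not tested. The libraries of a group varied widely there in Gabra6. Gabra6 ran from 0.521 to 9.56 CPM in the 9 medulla libraries at 18 weeks and from 0.503 to 96.5 CPM in the 9 pons libraries. At 28 weeks it ran from 1.42 to 95.6 CPM in 23 medulla libraries and from 1.07 to 8.82 CPM in 12 pons libraries. The cerebellar libraries held 554 to 798 CPM. Above 1% of the wild type cerebellar mean stood 2 of 9, 6 of 9, 11 of 23 and 2 of 12 of these sets. Above 5% stood 3 pons libraries at 18 weeks and 3 medulla libraries at 28 weeks, and the highest of each passed 10%.

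The groups that held the high libraries differed between the sets. In the 28-week medulla, ASO replicates 6 and 7 read 95.6 and 42.7 CPM of Gabra6 and vehicle-treated knockin replicates 2 and 1 read 65.8 and 22.5 CPM, while the highest wild type library read 14.03 CPM. ASO replicates 6 and 7 were also among the 4 libraries of low Hox level. In the 18-week pons, Gabra6 read 96.5, 12.5 and 11.7 CPM in wild type, 41.3, 67.6 and 10.5 CPM in vehicle-treated knockin, and 2.27, 6.41 and 0.503 CPM in ASO-treated libraries. The 3 pons libraries labelled ASO lay below all other 18-week pons libraries, although Atxn1 was not reduced in replicate 2 of them. Their log2 difference to vehicle in Gabra6 was -3.68 ± 1.31 (95% interval -6.78 to -0.58, adjusted p = 0.75, edgeR). It was -4.83 without the libraries whose Atxn1 went against their labels (adjusted p = 1.0). Zic1, Zic2 and Pax6 had log2 differences of -1.23 ± 0.50, -0.96 ± 0.32 and -0.82 ± 0.31 in the same comparison, with the same adjusted p. Neurod1 and Grin2c had -1.81 ± 0.81 and -0.38 ± 0.23, while Neurod2 (-0.09 ± 0.54), Grm4 (0.04 ± 0.23) and Barhl1 (0.30 ± 0.49) lay near or above 0. The part of carried tissue in these differences was not tested.

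The other genes followed Gabra6 to different degrees. Over the 23 medulla libraries at 28 weeks, a straight line of Neurod1 on Gabra6 rose by 0.375 CPM per CPM of Gabra6, where the ratio of the 2 genes in wild type cerebellum was 0.359, and it met the axis at 3.35 CPM, or 1.37% of the cerebellar level (Pearson r = 0.984). Cbln3 rose by 1.96 against a cerebellar ratio of 1.95. Neurod2 rose by 0.146 against 0.139, from a base of 7.72 CPM, which was 8.15% of its cerebellar level. In this set of libraries, these 3 slopes lay near the cerebellar ratios. Zic1 rose by 1.41 against 1.10 from a base of 53.3 CPM, Zic2 by 0.330 against 0.287 from 10.5 CPM, and Pax6 by 0.196 against 0.130 from 10.04 CPM. Their bases were 7.08%, 5.38% and 11.3% of the cerebellar levels. Grin2c rose by 0.469 against 0.548 from 30.9 CPM, and by 0.719 without the 2 libraries highest in Gabra6. The points of each line share library and depth, and 2 libraries, ASO replicate 6 and vehicle-treated knockin replicate 2, hold much of its reach. Without these 2 the slope of Neurod1 was 0.365. The slopes of Neurod2 in the 28-week pons, 18-week medulla and 18-week pons were 0.202, 0.486 and 0.0503. In the same order those of Neurod1 were 0.440, 0.346 and 0.299, and those of Cbln3 were 2.11, 2.68 and 1.98.

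Over all 23 medulla libraries at 28 weeks Grm4 rose by 0.0574 CPM per CPM of Gabra6 from a base of 31.2 CPM (r = 0.208). The ratio of the 2 genes in wild type cerebellum was 0.504. Without the 2 libraries farthest from the median of Gabra6 the slope was 0.0564. The line over all 23 libraries pools groups that differ in Grm4, and no lines were fitted within groups. Vehicle-treated knockin replicates 1 and 2 read 29.9 and 28.8 CPM of Grm4, the 2 highest of 8, ASO replicate 6 read 40.7 CPM, the highest of 7, and wild type replicates 7 and 1 read 42.8 and 40.2 CPM, the 2 highest of 8. ASO replicate 7, second in Gabra6, read 30.9 CPM, near the median of its group at 30.8 CPM. With the Cbln3 term the knockin difference of Grm4 was -0.63 (adjusted p = 7.8e-08, edgeR). In the 28-week pons, where Gabra6 spanned a narrow range, Grm4 rose by 0.568 CPM per CPM of Gabra6 from a base of 28.8 CPM (r = 0.322, n = 12), and by 1.18 without the 2 libraries farthest from the median of Gabra6. Its knockin difference there was -0.42 with the term (adjusted p = 0.015) and that of Grin2c was -0.44 (adjusted p = 0.0067). Barhl1 rose by 0.0720 in the medulla against a ratio of 0.0172, from a base of 3.304 CPM, or 28.2% of its cerebellar level. In the 28-week pons it fell by 0.270 CPM per CPM of Gabra6 from a base of 12.3 CPM, which was 105% of its cerebellar level (r = -0.250, n = 12). Without the 2 farthest libraries the slope was -0.996.

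**Figure D4:**
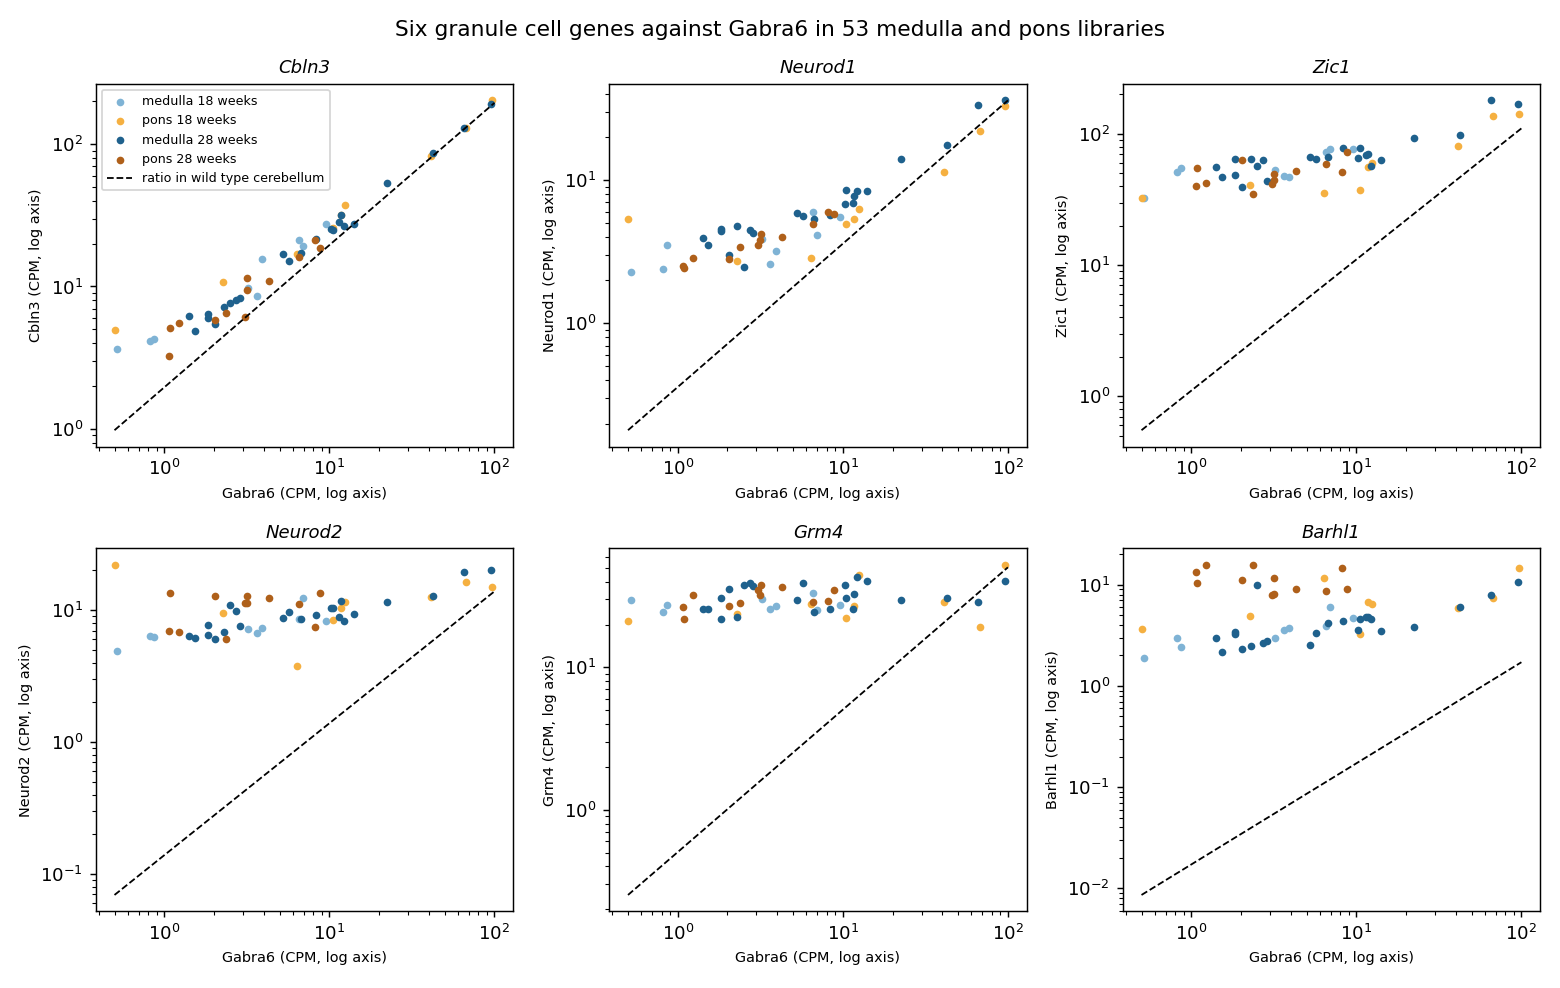
Levels of Cbln3, Neurod1, Zic1, Neurod2, Grm4 and Barhl1 against Gabra6 in the 53 medulla and pons libraries (CPM, log axes), with the ratio found in wild type cerebellum as a dashed line and colours giving tissue and age. Cbln3 and Neurod1 approach the line in libraries rich in Gabra6, Zic1 and Neurod2 level off to a base at left, and each colour pools the 3 groups, which matters for Grm4.

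A search for likeness covered genes with a mean log2 CPM of at least 1, with provisional symbols and unnamed IDs left out. Over the 23 medulla libraries at 28 weeks, the 5 genes of 12908 whose log2 CPM correlated most with Gabra6 were Cbln3 (Pearson r = 0.995), Il16 (0.952), Neurod1 (0.944), Cnpy1 (0.938) and Gabrd (0.924). Over the 12 pons libraries at 28 weeks they were Neurod1 (0.975), Cbln3 (0.947), Il16 (0.908), Ppp1r17 (0.854) and Katna1 (0.783). Cbln3, Il16 and Gabrd stood on the list of further granule cell genes and Ppp1r17 on that of Purkinje cells. Purkinje cell genes moved with Gabra6 too. The line of Pcp2 in the medulla rose by 0.267 against a ratio of 0.579 in wild type cerebellum, and that of Car8 by 1.33 against 2.98. These lines pool the 3 groups, and the medulla libraries highest in Gabra6 were knockin. At 18 weeks the sum of all 12 Purkinje cell genes had medians of 6212 CPM in vehicle-treated and 7431 CPM in ASO-treated knockin cerebellum. In wild type cerebellum the median was 10593 CPM. The lines were not set against the ratios of knockin cerebellum, and the part of the knockin in these slopes was not tested.

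Between the brainstem tissues of wild type mice at 28 weeks, Barhl1 alone of the 9 was called, where 7.7% of the 22046 genes tested were called higher in pons, 8.02% lower and 15.7% in either direction. It read 7.99, 9.07, 9.17 and 11.8 CPM in pons and ran from 2.34 through a median of 3.44 to 9.98 CPM in medulla. The ranges overlapped through 1 medulla library, wild type replicate 5, which was of low Hox level. The log2 difference was 1.25 ± 0.31, or 2.37-fold higher in pons (adjusted p = 0.0076, edgeR), and 1.57 without the libraries of low Hox level (adjusted p = 6.8e-05). For Neurod2 the pons libraries all lay above the medulla libraries, at 12.2 ± 1.07 against 9.03 ± 1.63 CPM, with a log2 difference of 0.43 ± 0.25 (adjusted p = 0.24, edgeR). Gabra6, Grm4, Grin2c, Neurod1 and Zic1 had log2 differences between -0.38 and -0.01, and Zic2 and Pax6 of 0.48 ± 0.31 and 0.30 ± 0.20, none of them called.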

How the data were processed

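Per the labels, total RNA of cerebellum, medulla and pons was made into stranded libraries and sequenced, with 65 libraries in 15 groups. The authors deposited whole-number read counts per gene. Per the submitters' processing notes, CASAVA 1.8, HISAT2 2.0.2, GRCm38 and featureCounts of Subread were used, and R 3.3.3 with DESeq2 1.14.1. Strand and read pair settings are not given in the sources used here. Small counts, between 1 and 20, were even numbers in 70 to 78.6% of cases per library, and the cause was not tested. GENCODE vM21 named 49411 of 49670 IDs, and the unnamed IDs held 0.035% of counts.

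Counts were tested with edgeR 4.0.16 (TMM, filterByExpr with a minimum count of 10, robust quasi-likelihood fit, R 4.3.3), with the groups of 1 tissue and age in 1 model, a batch term in the 28-week medulla, and 1 model over tissues for the regional tests. DESeq2 1.42.0, RLE factors, no filter, the groups compared alone, a replicate block, single batches and leaving out each library were tried. Leaving out the low Hox libraries or those whose Atxn1 went against their labels, and adding a Cbln3 term, were chosen after seeing the data. The steps were tested on simulated data. Levels are TMM CPM over all libraries, with a prior count of 2 for likeness.

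Named were the 9 genes and Atxn1, then some called genes of the further lists (at most 4 per list and comparison, by adjusted p) and the 5 genes most like Gabra6 or Grm4. Some results of the further lists are not reported here. The genes and lists were chosen with earlier results of these data known. The column headers hold 38 numbers, of which 15 occur in 2 tissues and 6 in 3, and the labels do not say what they mark.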

Additional observations from a re-analysis of the deposited data

Results flagged for a closer look

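Each of 81 combinations of 1 of the 9 genes and 1 group of at least 4 libraries was tested for a single library far from the rest. In all, 14 such values were found, where chance gives about 1 in 20 combinations. The genes of a group share the same libraries, so the 14 are not independent and are not a measure against chance. Most lay in the 28-week medulla. Vehicle-treated knockin replicate 2 was the highest of its group by a wide gap for Gabra6 (65.8 CPM), Neurod1 (33.1), Neurod2 (19.5), Zic1 (181), Zic2 (41.6), Pax6 (22.7) and Barhl1 (7.94). ASO replicate 6 stood out likewise for Neurod1 (36.1 CPM), Neurod2 (20.2) and Zic1 (169). Wild type replicate 5, a library of low Hox level, was far above its group for Zic2 (22.0 CPM) and Barhl1 (9.98) and not for Gabra6, at 2.51 CPM. In the cerebellum, vehicle-treated knockin replicate 4 was far below its group for Zic1 (632 CPM). In the 28-week pons, wild type replicate 1 was far below its group for Zic2 (14.5 CPM). No difference of a knockin effect between tissues was called for the 9 genes by edgeR. DESeq2 called 1, Grm4 in cerebellum against medulla.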

How the results depend on the processing

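No difference of the 9 genes reversed its sign past the threshold under any alternative run, and RLE factors moved no count of calls by over 1.5 times. The calls on Grm4 in cerebellum, 28-week medulla and 28-week pons of the knockin, that on Grin2c in the pons and all regional calls were made under each alternative run.

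Among the 9 genes, the knockin cerebellum gave 2 calls, 4 with DESeq2, 6 with the 2 groups alone, 1 with the replicate block, which lost Neurod2 (adjusted p = 0.054, edgeR), and 2 to 4 when 1 library was left out, the 4 without ASO replicate 3. The ASO-treated cerebellum against wild type gave 0, 1 with DESeq2, and 0 to 1 with 1 library left out. The knockin medulla at 28 weeks gave 1, 2 with the groups alone or without the low Hox libraries, and 3 with the Cbln3 term. The ASO medulla at 28 weeks gave 1, and 0 with the block, the groups alone, batch 1 or batch 2 alone or without the low Hox libraries, and 0 to 1 with 1 library left out. The knockin pons at 28 weeks gave 2, 4 with DESeq2, and 2 to 4 with 1 library left out, the 4 without vehicle replicate 4. The effect of the knockin in cerebellum against medulla gave 0, and 1 with DESeq2.

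Over all genes, DESeq2 called 1158 in the knockin cerebellum in place of 552, 218 in the ASO cerebellum in place of 10, 372 in place of 0 for ASO-treated cerebellum against wild type, 14 and 3 in place of 0 for knockin and ASO in the 18-week medulla, and 2 and 20 in place of 0 in the 18-week pons. It called 610 in place of 346 in the ASO medulla and 603 in place of 19 in the ASO pons at 28 weeks, and 112 and 258 in place of 35 and 53 for the differences between tissues. The groups alone gave 3161 and 2 calls in the cerebellum (knockin, ASO), 1 for the ASO in the 18-week medulla, and 162 and 3 for the ASO in medulla and pons at 28 weeks. Without the filter the ASO gave 1 call each in medulla and pons at 18 weeks and 76 in the pons at 28 weeks. Batch 1 alone gave 644 calls for the knockin and 0 for the ASO in the medulla at 28 weeks, and batch 2 alone 222 for the ASO. The low Hox libraries left out gave 138 for the ASO, and the Cbln3 term gave 1241 for the knockin and 11 for the ASO in the pons at 28 weeks. Leaving out the libraries whose Atxn1 went against their labels gave 9 for the ASO in the 18-week medulla.

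With 1 library left out, the counts over all genes ran from 277 to 2914 (knockin cerebellum, the highest without ASO replicate 3), 4 to 124 (ASO cerebellum), 0 to 333 (ASO-treated cerebellum against wild type, the highest without ASO replicate 4), 0 to 1 (ASO, 18-week medulla), 191 to 611 (ASO, 28-week medulla), 831 to 4259 (knockin, 28-week pons, the highest without vehicle replicate 4), 4 to 299 (ASO, 28-week pons), 11 to 27 and 20 to 94 (knockin effect in cerebellum against medulla and against pons) and 1755 to 4606 (pons against medulla). The cause of these shifts was not tested.

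Replicate numbers recur across groups, and the deviations of libraries of the same number had a median correlation between -0.30 and -0.03 in the 5 sets. No such value was computed for libraries of different numbers. Within a set they share only a number. Libraries of different tissues with the same number in the column headers had higher medians, at 0.26 (medulla and pons, 28 weeks), 0.19 (medulla and pons, 18 weeks) and 0.16 (cerebellum and brainstem). The tests between tissues treat such libraries as independent, and if they came from the same mice this does not hold. With the replicate block the calls over all genes were 303 in the knockin cerebellum, 4 in the ASO cerebellum, 8 in the ASO pons at 28 weeks, 12 and 8 for the differences between tissues, and 1342 for pons against medulla.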
